A study of Mus musculus with 17 samples.

Results

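Men1, Jund and Psip1 were followed across 17 arrays of mouse pancreatic islets. Men1 codes for menin, the tumour suppressor lost in multiple endocrine neoplasia, Jund for the AP-1 transcription factor JunD, and Psip1 for the chromatin reader LEDGF. The members were all probe sets annotated to exactly 1 of these symbols, which gave 1 probe set for each gene, 3 of the 19938 genes that a probe set names alone and 3 of the 21789 such probe sets, in a table of 35512. They were probe set 10460879 for Men1, 10572456 for Jund and 10514158 for Psip1. In the RefSeq annotation of mouse build GRCm38.p6, Men1 spans chr19:6334979-6340894, Jund chr8:70697739-70700616 and Psip1 chr4:83455680-83486463. Which exons the probes of each set match was not analysed here.

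Islets came from untreated mice aged 2 months in 5 groups. They were Men1flf RIP-Cre (3 arrays), Rbp2flf RIP-Cre (4 arrays), Men1flf Rbp2flf RIP-Cre (4 arrays, called the double knockout here), RIP-Cre (3 arrays) and wt (3 arrays). RIP-Cre expresses Cre recombinase from the rat insulin promoter, so recombination is directed to beta cells, while the other cells of an islet keep the intact alleles. All 3 knockout groups and the RIP-Cre controls carry this transgene, and wt does not. Rbp2 is the older name of Kdm5a, a demethylase that removes methyl groups from lysine 4 of histone H3. The titles give each array a repeat number and do not say whether repeats are separate animals. A p-value therefore measures only the spread among arrays, which may be technical.

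Menin has no enzyme activity of its own. It sits as a subunit in the KMT2A and KMT2B (MLL1 and MLL2) complexes that methylate histone H3 at lysine 4, and menin bound to KMT2A forms a surface that LEDGF also contacts. LEDGF has a PWWP domain that reads methylated chromatin and an integrase-binding domain that docks partner proteins. JunD is the member of the Jun family that menin binds directly, and in cultured cells menin turns JunD from an activator into a repressor of transcription. Menin and Rbp2 thus stand on opposite sides of the same histone mark, and JunD and LEDGF are partners of menin in different kinds of protein complex.

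The promoter windows of Men1 and Jund are shown because Men1 changed in the Rbp2flf RIP-Cre islets, and the DNA-binding ARID domain of human KDM5A is known to prefer CCGCCC. Each window holds 250 bases before and 50 after the gene start in RefSeq's GRCm38.p6, on the + strand, with any CCGCCC or its reverse complement GGGCGG in capitals. The Men1 window is chr19:6334729-6335028 and the Jund window chr8:70697489-70697788.
Men1: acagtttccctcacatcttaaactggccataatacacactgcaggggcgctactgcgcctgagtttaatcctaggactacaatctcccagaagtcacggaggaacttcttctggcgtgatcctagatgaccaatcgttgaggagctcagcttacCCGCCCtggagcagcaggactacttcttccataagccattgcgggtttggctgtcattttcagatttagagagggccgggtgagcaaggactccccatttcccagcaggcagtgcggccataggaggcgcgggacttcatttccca
Jund: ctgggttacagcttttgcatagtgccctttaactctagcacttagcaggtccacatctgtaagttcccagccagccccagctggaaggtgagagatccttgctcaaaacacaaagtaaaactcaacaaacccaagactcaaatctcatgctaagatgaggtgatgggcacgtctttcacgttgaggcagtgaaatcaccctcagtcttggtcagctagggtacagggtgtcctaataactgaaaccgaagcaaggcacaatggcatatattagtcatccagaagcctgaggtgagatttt
The Men1 window had 1 match, starting 96 bases before the gene start, with a G and C content of 53.3% and 11 CpG dinucleotides. The Jund window had no match, 46.7% G and C and 3 CpG dinucleotides. Men1 has 3 RefSeq windows, and 3 of 3 held the motif, as did 35.7% of all 32851 windows of this length. Whether the 3 windows overlap and share 1 match was not analysed here, so no enrichment is read from them. The AP-1 motif TGACTCA and the cAMP response element TGACGTCA were searched on both strands. Neither was in any of these Men1 or Jund windows, and they were in 5.20% and 1.79% of all windows. A match or its absence describes only the letters of these windows.

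Differences between groups were tested with limma in 1 fit over all 21789 single-gene probe sets and all 17 arrays. A call was a Benjamini-Hochberg adjusted p under 0.05. In islets, fewer cells of a type and less RNA per cell cannot be told apart. The arrays themselves moved with genotype: their medians were 7.87 to 7.88 in Men1flf RIP-Cre, 7.83 to 7.99 in Rbp2flf RIP-Cre, 7.89 to 7.96 in the double knockout, 7.98 to 8.15 in RIP-Cre and 7.99 to 8.10 in wt, on the log2 scale. The median log2 difference of all probe sets against RIP-Cre was -0.23 in Men1flf RIP-Cre, -0.12 in Rbp2flf RIP-Cre and -0.14 in the double knockout. It depended on level: the median of the probe sets within 0.25 log2 of a member's own mean level was between 0.02 and 0.15 in each knockout group minus RIP-Cre. That median is given below beside each member. The islet hormones were bright on all 17 arrays, with Ins2 at 13.54 to 13.74, Gcg at 13.14 to 13.82 and Sst at 12.92 to 14.21. Of 4 beta cell markers, 3 rose in Men1flf RIP-Cre, and the mean of all 4 was at least 12.89 there, against at most 12.64 in RIP-Cre. In the same comparison 2 of 2 Schwann cell markers, 2 of 3 duct markers, 2 of 4 endothelial markers, 1 of 2 alpha cell markers and 1 of 2 delta cell markers fell, and of 3 lymphocyte markers Cd79a, a B cell gene, rose by 1.26 log2 (adjusted p = 0.0339). The mean of the 2 Schwann cell markers was 6.71 to 6.77 in Men1flf RIP-Cre against 7.41 to 8.02 in RIP-Cre, and that of the 3 duct markers was 6.96 to 7.08 against 7.35 to 7.75. In the double knockout 3 of 4 beta cell markers and Cd79a (adjusted p = 0.0454) rose, and 2 of 2 Schwann cell, 2 of 4 endothelial, 1 of 3 duct, 1 of 2 alpha cell and 1 of 2 delta cell markers fell. In Rbp2flf RIP-Cre the beta cell marker Iapp (0.36) and the endothelial marker Kdr (0.40) rose and the duct marker Cftr (-0.52) fell. None of the 3 acinar markers was called in any knockout group, but their mean varied widely among arrays. It was 8.29 to 11.49 in RIP-Cre and 9.05 to 11.59 in Men1flf RIP-Cre. The shares called over all probe sets were 16.6% higher and 37.1% lower in Men1flf RIP-Cre, and 6.95% and 6.82% in Rbp2flf RIP-Cre. For the double knockout they were 13.7% and 20.5%. The duct marker Cftr and the Schwann cell marker Cdh19 were dim, with mean levels of 5.83 and 6.32. Loss of a cell type is therefore not read from these counts. No marker is listed at 0. The part of these shifts in the differences below was not tested.

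Men1 was the targeted gene in the Men1flf groups, and its level checks those labels. The Rbp2flf label has no such check here: Kdm5a, with 1 probe set, was at 8.95 to 9.18 in Rbp2flf RIP-Cre against 9.09 to 9.37 in RIP-Cre, a log2 difference of -0.22 (SE 0.11, limma adjusted p = 0.149), and was at 9.07 to 9.39 in the double knockout (-0.02, adjusted p = 0.897). Whether its probes lie in the deleted part was not analysed here. The log2 level of Men1 was 8.14, 8.43 and 8.42 on the Men1flf RIP-Cre arrays and 8.87, 8.54, 8.64 and 8.46 on the double knockout arrays. It was 10.24, 10.05, 10.11 and 10.09 on the Rbp2flf RIP-Cre arrays. The RIP-Cre arrays had 9.31, 9.49 and 9.38, and the wt arrays 9.25, 9.45 and 9.31. The 5 groups fell into 3 bands that did not overlap: the 7 arrays of the Men1flf groups lay lowest, the 6 RIP-Cre and wt arrays between, and the 4 Rbp2flf RIP-Cre arrays highest.

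Set against RIP-Cre, Men1 fell by 1.06 on the log2 scale in Men1flf RIP-Cre islets, which left 0.479 of the RIP-Cre level (SE 0.11, 95% interval -1.30 to -0.82 log2, limma adjusted p = 3.57e-05). Probe sets of like level had a median log2 difference of 0.02. Group means were 8.33 ± 0.165 in Men1flf RIP-Cre and 9.39 ± 0.091 in RIP-Cre (SD, n = 3 each). In that comparison 53.6% of all probe sets were called, 16.6% higher and 37.1% lower. Of the 3 genes, 1 was higher and 1 lower. These shares move with the scaling and with single arrays: 3609 probe sets were called higher and 8075 lower as deposited, against 4108 and 3585 after cyclic loess normalization. Without RIP-Cre 3, 6820 probe sets were called in place of 11684.

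In the double knockout Men1 was at 0.588 of the RIP-Cre level, with a log2 difference of -0.77 (SE 0.11, 95% interval -0.99 to -0.54, adjusted p = 0.00058), against a median of 0.02 for probe sets of like level. It was the 1 member called there, where 34.2% of all probe sets were called, 13.7% higher and 20.5% lower. The Men1 level remaining was slightly greater in the double knockout than in Men1flf RIP-Cre: all 4 double knockout arrays, 8.46 to 8.87, lay above the 3 Men1flf RIP-Cre arrays, 8.14 to 8.43. The log2 difference was 0.30 (SE 0.11, 95% interval 0.07 to 0.52). It did not pass the adjustment over all probe sets (limma adjusted p = 0.206), and 0 of the 3 genes were called in that comparison, against 1.6% of all probe sets. That share is 348 probe sets, and 109 were called without Men1flf RIP-Cre 1.

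In Rbp2flf RIP-Cre islets, whose label names no Men1 allele, Men1 was 1.66-fold the RIP-Cre level, a log2 difference of 0.73 (SE 0.11, 95% interval 0.51 to 0.95, adjusted p = 0.00388). Means were 10.12 ± 0.082 in Rbp2flf RIP-Cre (SD, n = 4) and 9.39 ± 0.091 in RIP-Cre (SD, n = 3). Probe sets of like level had a median of 0.03, and Men1 was the 1 member called where 13.8% of all probe sets were, 6.95% higher and 6.82% lower. The double knockout minus Rbp2flf RIP-Cre was -1.50 on the log2 scale (SE 0.10, adjusted p = 4.45e-07), which left 0.355 of the Rbp2flf RIP-Cre level of Men1. Men1 was again the 1 member called, against 1.17% of all probe sets. These comparisons share arrays: the RIP-Cre arrays enter each knockout difference from RIP-Cre.

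The calls for Men1 in those 4 comparisons were kept under every setting tried and with each of the 17 arrays left out in turn. Leaving out arrays gave -1.11 to -0.97 for Men1flf RIP-Cre, 0.69 to 0.78 for Rbp2flf RIP-Cre and -0.85 to -0.71 for the double knockout, all minus RIP-Cre, and -1.58 to -1.44 for the double knockout minus Rbp2flf RIP-Cre. Between RIP-Cre and wt the Men1 levels overlapped, with a log2 difference of 0.06 (95% interval -0.18 to 0.30, adjusted p = 1). In that comparison limma called 0% of all probe sets, and 604 had an unadjusted p under 0.05. In order of mean level, Rbp2flf RIP-Cre was followed by RIP-Cre, wt, the double knockout and Men1flf RIP-Cre, and only the neighbours RIP-Cre and wt overlapped.

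**Figure D1:**
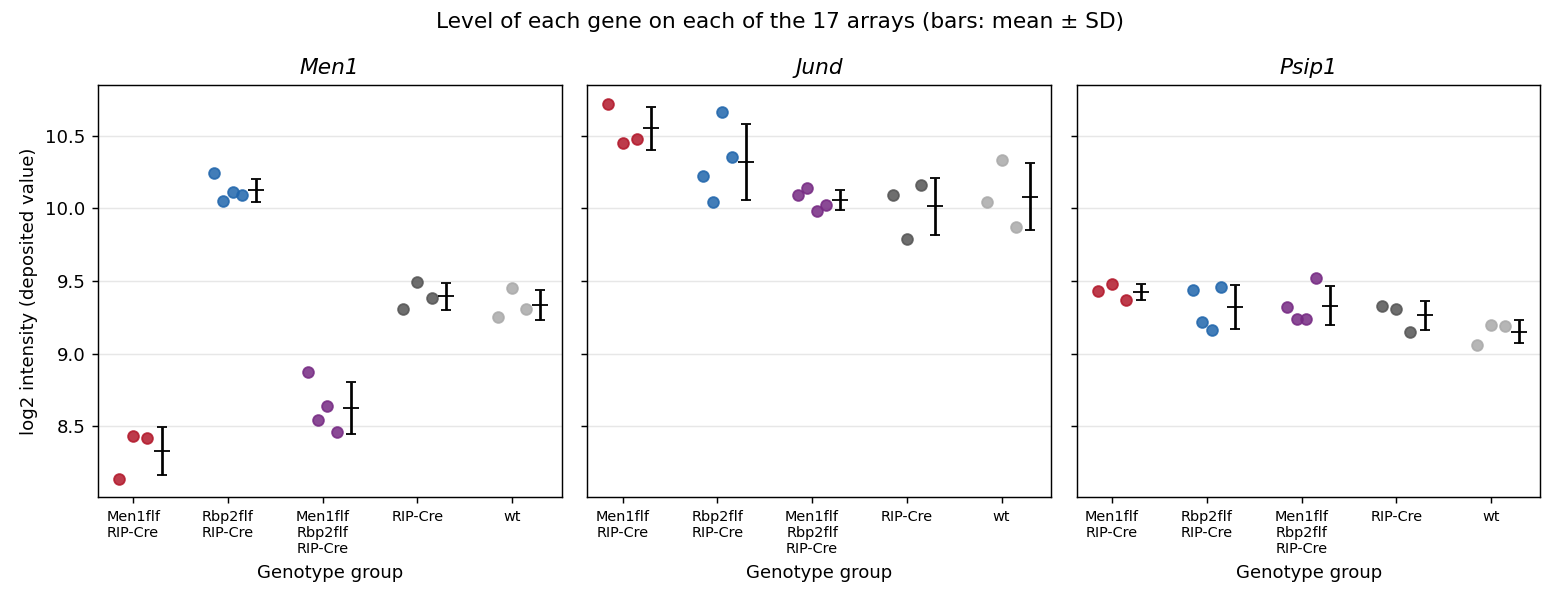
Log2 intensity (vertical axis) of Men1, Jund and Psip1 on each of the 17 arrays, grouped by genotype (horizontal axis), where points are arrays in repeat order and bars are the mean ± SD of a group. Men1 forms 3 separate bands, Jund is highest in Men1flf RIP-Cre with a wide spread in Rbp2flf RIP-Cre, and Psip1 stays between 9.06 and 9.52 on all arrays.

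Jund, the menin-binding Jun family member, had log2 levels of 10.72, 10.45 and 10.48 on the Men1flf RIP-Cre arrays. It had 10.22, 10.04, 10.66 and 10.35 on the Rbp2flf RIP-Cre arrays and 10.09, 10.14, 9.98 and 10.02 on the double knockout arrays. The RIP-Cre arrays had 10.09, 9.79 and 10.16, and the wt arrays 10.04, 10.33 and 9.87. All 3 Men1flf RIP-Cre arrays lay above all double knockout, RIP-Cre and wt arrays, and overlapped only Rbp2flf RIP-Cre, where repeat 3 was high.

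Jund was 1.45-fold the RIP-Cre level in Men1flf RIP-Cre islets, with means of 10.55 ± 0.148 and 10.01 ± 0.197 (SD, n = 3 each). The log2 difference was 0.54 (SE 0.15, 95% interval 0.22 to 0.86, adjusted p = 0.00908), while probe sets of like level had a median of 0.15. The call depends on how the array-wide shift is treated. After quantile or cyclic loess normalization the log2 difference was 0.37 in both, with adjusted p = 0.0812 and 0.0802, and with the array median as a covariate it was 0.65 with adjusted p = 0.140. It passed in 9 of the 12 other settings and in 17 of 17 fits that left out an array, where it lay between 0.43 and 0.61.

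In the Rbp2flf groups no Jund difference from RIP-Cre was called. Rbp2flf RIP-Cre minus RIP-Cre gave 0.30 on the log2 scale (SE 0.14, 95% interval 0.01 to 0.60, adjusted p = 0.124), with overlapping arrays and a median of 0.12 for probe sets of like level. The value was 0.19 without Rbp2flf RIP-Cre 3 or without RIP-Cre 2, and at most 0.40 with any other array left out. The double knockout, with a mean of 10.06 ± 0.071 (SD, n = 4), differed from RIP-Cre by 0.04 log2 (95% interval -0.25 to 0.34, adjusted p = 0.814), against 0.15 for probe sets of like level. The 4 double knockout arrays all lay below the 3 Men1flf RIP-Cre arrays, by -0.49 on the log2 scale (SE 0.14, 95% interval -0.79 to -0.19). This difference missed the threshold over all probe sets (adjusted p = 0.105) and passed it when only the arrays of the 2 groups were fitted (adjusted p = 0.0377). The double knockout minus Rbp2flf RIP-Cre was -0.26 (95% interval -0.54 to 0.02, adjusted p = 0.467), and RIP-Cre minus wt was -0.07 (95% interval -0.39 to 0.25, adjusted p = 1).

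The interaction asks whether the Rbp2flf genotype shifts a gene differently when Men1 is also deleted. For Jund that shift was -0.49 with Men1 deleted, the double knockout minus Men1flf RIP-Cre, and 0.30 without, Rbp2flf RIP-Cre minus RIP-Cre. The difference between these shifts was -0.80 on the log2 scale (SE 0.20, 95% interval -1.22 to -0.38, adjusted p = 0.0476), against a median of -0.14 for probe sets of like level. Jund was the 1 member called, where 3.36% of all probe sets were. That share, 732 probe sets, ran from 17 without Men1flf RIP-Cre 1 to 2932 without RIP-Cre 2. The estimate kept its sign in every setting, from -0.90 to -0.64, but passed in only 5 of the 12 other settings and in 8 of 17 fits that left out an array. For Men1 the interaction was -0.43 (SE 0.15, adjusted p = 0.0733) and for Psip1 -0.15 (SE 0.14, adjusted p = 0.408).

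**Figure D2:**
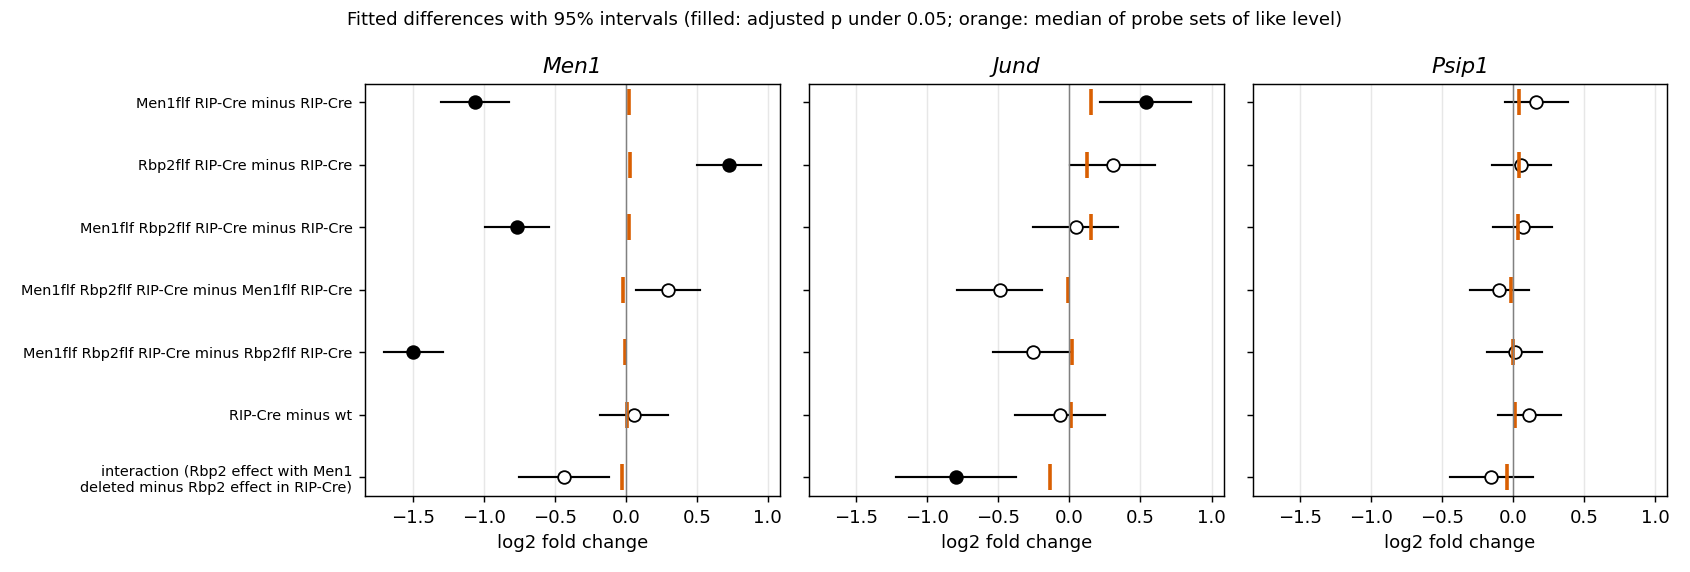
Fitted log2 fold change (horizontal axis) of each gene in the 6 comparisons and the interaction, with 95% intervals, filled where the adjusted p was under 0.05 and with an orange bar at the median of probe sets of like level. Men1 is filled in 4 comparisons, from -1.50 to 0.73, Jund in Men1flf RIP-Cre minus RIP-Cre (0.54) and in the interaction (-0.80), and Psip1 in none.

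Jund moved within groups together with Fos, Fosb and Jun, the early-response AP-1 genes that cells switch on within minutes of a stimulus. Fos, the classic dimer partner of Jun proteins, had log2 levels of 9.74, 7.87 and 7.51 on the Men1flf RIP-Cre arrays, against 8.70, 7.65 and 9.40 on the RIP-Cre arrays. It had 9.10, 9.04, 11.04 and 9.46 on the Rbp2flf RIP-Cre arrays and 8.37, 9.44, 8.34 and 8.49 on the double knockout arrays. In 5 of 5 groups the array highest in Jund was also the highest in Fos, in Fosb and in Jun. After each group's mean was taken off, Pearson r with Jund over the 17 arrays was 0.84 for Fos, 0.86 for Fosb, 0.84 for Jun and 0.69 for Junb, as a description over arrays of 5 groups. Men1 and Psip1 had r of -0.44 and -0.34 with Fos, and the same array was on top in 1 of 5 groups.

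The high Jund value of Rbp2flf RIP-Cre repeat 3 (10.66) came from the array with the highest Fos (11.04) and Jun (11.87). In Men1flf RIP-Cre, Fos differed from RIP-Cre by -0.21 log2 (SE 0.58, limma adjusted p = 0.768) and Jun by -0.02 (SE 0.45, adjusted p = 0.972). Both SE are wide. In the same comparison Junb fell by 0.82 (limma adjusted p = 0.0477), and Atf3 was at -0.59 (adjusted p = 0.140). Rhob, an immediate-early gene, averaged 8.72 in Men1flf RIP-Cre and 8.01 in RIP-Cre. It was picked as the gene most like Jund on these same arrays, so its level is no separate evidence. Whether the higher Jund of Men1flf RIP-Cre goes with an early response was not tested beyond 1 further fit. That fit added Fos as a covariate, a choice made with the data seen. Fos moved with Jund within groups on these same arrays, so a smaller SE in that fit is no separate support. In that fit Jund in Men1flf RIP-Cre minus RIP-Cre was 0.58 (SE 0.10, adjusted p = 0.00101) and in Rbp2flf RIP-Cre minus RIP-Cre 0.09 (adjusted p = 0.525). In the same fit the double knockout minus Men1flf RIP-Cre was -0.55 (adjusted p = 0.0075), and the interaction was -0.64 (adjusted p = 0.0534).

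**Figure D3:**
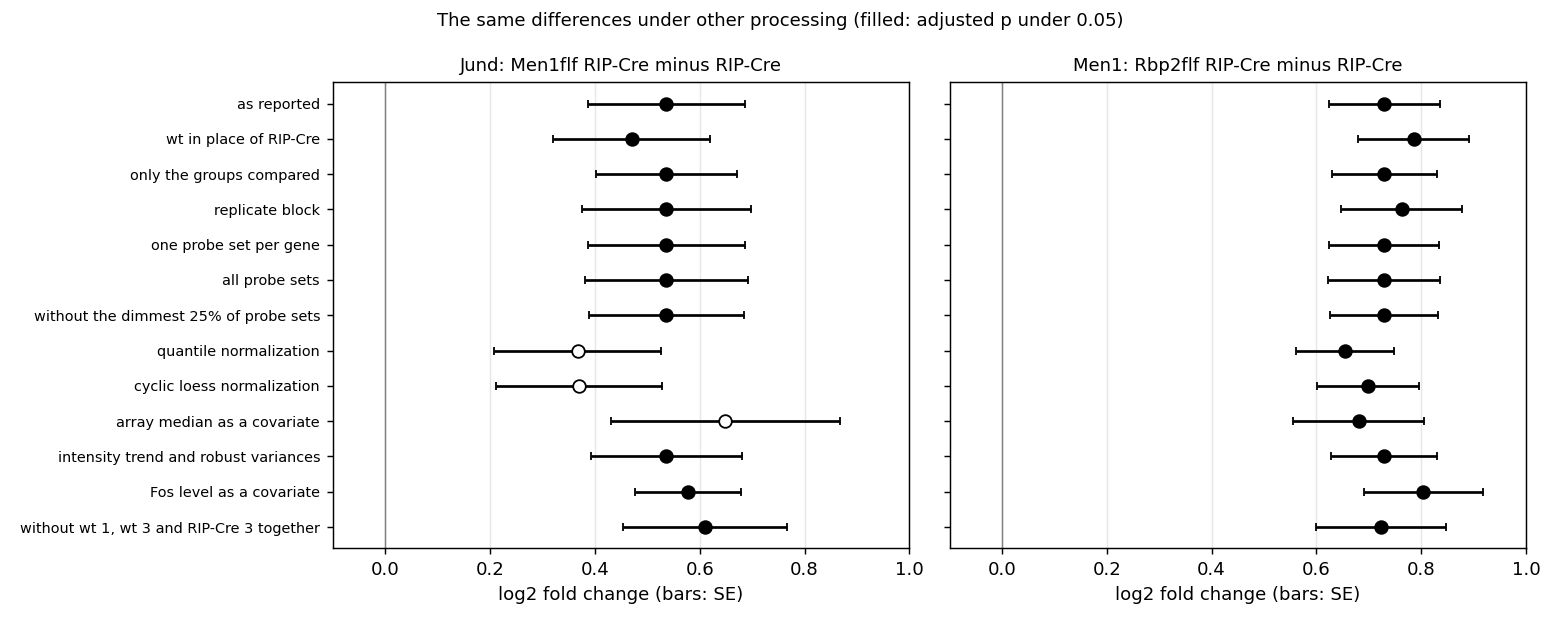
Log2 fold change (horizontal axis, bars are SE) of Jund in Men1flf RIP-Cre minus RIP-Cre and of Men1 in Rbp2flf RIP-Cre minus RIP-Cre as reported and under 12 other settings (vertical axis), filled where the adjusted p was under 0.05. The Men1 difference is filled throughout, from 0.65 to 0.80, and the Jund difference is open under quantile normalization, cyclic loess normalization and the array median as a covariate.

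Psip1, which codes for LEDGF, was the steadiest of the 3 genes. Its log2 levels were 9.43, 9.48 and 9.37 on the Men1flf RIP-Cre arrays, 9.44, 9.22, 9.16 and 9.46 on the Rbp2flf RIP-Cre arrays and 9.32, 9.24, 9.24 and 9.52 on the double knockout arrays. They were 9.33, 9.31 and 9.15 on the RIP-Cre arrays and 9.06, 9.20 and 9.19 on the wt arrays. The Men1flf RIP-Cre arrays lay above all RIP-Cre and wt arrays, and the other knockout groups overlapped RIP-Cre.

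No comparison called Psip1 as reported. Men1flf RIP-Cre minus RIP-Cre was 0.16 on the log2 scale (SE 0.10, 95% interval -0.06 to 0.38, adjusted p = 0.188), which leaves room for a fold of 0.961 to 1.31. Probe sets of like level had a median of 0.04. With wt in place of RIP-Cre the log2 difference was 0.28 and passed (adjusted p = 0.0364), and with the array median as a covariate it was -0.04 (adjusted p = 0.918). The differences from RIP-Cre were 0.06 in Rbp2flf RIP-Cre (95% interval -0.15 to 0.26, adjusted p = 0.675) and 0.07 in the double knockout (95% interval -0.14 to 0.27, adjusted p = 0.596), and probe sets of like level had a median of 0.04 in both. The double knockout differed from Men1flf RIP-Cre by -0.10 (adjusted p = 0.649) and from Rbp2flf RIP-Cre by 0.01 (adjusted p = 0.991), and RIP-Cre from wt by 0.11 (adjusted p = 1). In order of mean, Men1flf RIP-Cre (9.43) was followed by the double knockout (9.33), Rbp2flf RIP-Cre (9.32), RIP-Cre (9.26) and wt (9.15), and each neighbour overlapped the next.

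The 3 genes did not move as a unit. On levels minus the array median, Pearson r over the 17 arrays was -0.12 between Men1 and Jund, -0.20 between Men1 and Psip1 and 0.54 between Jund and Psip1. After group means were taken off as well, the last was -0.21 and the others -0.10 and 0.02. These r values are descriptions over arrays that share a genotype within each group.

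The gene lists that follow are to be read against the shares called over all probe sets. These were 16.6% higher and 37.1% lower in Men1flf RIP-Cre, 6.95% and 6.82% in Rbp2flf RIP-Cre, and for the double knockout 13.7% and 20.5%, with medians of -0.23, -0.12 and -0.14. Those medians depend on level. Without the dimmest 25% of probe sets they were -0.12, -0.06 and -0.08 in the same order, so they are no like-level baseline for a list. Of the 8 other subunits of menin's H3K4 methyltransferase complexes, 2 rose and 0 fell in Men1flf RIP-Cre, 0 changed in Rbp2flf RIP-Cre, and 3 rose and 0 fell in the double knockout. Hcfc1, the host cell factor subunit, rose by 0.58 log2 in Men1flf RIP-Cre (adjusted p = 0.00188) and by 0.51 in the double knockout (adjusted p = 0.00524). Ash2l, a core subunit that stimulates the methyltransferase, rose by 0.28 and 0.29 in the same groups (adjusted p = 0.0322 in both), and Wdr5, the subunit that holds the core together, rose by 0.25 in the double knockout (adjusted p = 0.0418). Kmt2a and Kmt2b, the methyltransferases that menin binds, were not called in any knockout and differed from RIP-Cre by -0.06 and -0.16 log2 in Men1flf RIP-Cre. The median log2 difference of the 8 in Men1flf RIP-Cre was 0.16, against -0.23 over all probe sets. The 8 had mean levels of 8.57 to 11.27, and probe sets near the levels of the 3 members had medians of 0.02 to 0.15. No rise of the list as a whole is therefore read from its median.

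Of 32 other proteins known to bind menin, 29 were measured, and Runx2, Nfkb1 and Suv39h1 were not analysed here. In Men1flf RIP-Cre 6 rose and 8 fell, beside 16.6% and 37.1% of all probe sets, with a list median of -0.14 beside -0.23. Smad5, a transducer of bone morphogenetic protein signals, rose by 0.73 log2 (adjusted p = 0.000621), while Smad1, of the same class, fell by 0.42 (adjusted p = 0.00162). The fatty acid receptor gene Pparg fell by 0.59 (adjusted p = 0.000836), and Iqgap1, a scaffold protein of the cell cortex, rose by 0.56 (adjusted p = 0.00213). In Rbp2flf RIP-Cre 5 rose and 0 fell (median -0.06), led by Ctnnb1 (0.58, adjusted p = 0.0174), which codes for beta-catenin, and Vdr (0.55, adjusted p = 0.0296), the vitamin D receptor. In the double knockout 6 rose and 4 fell (median -0.04), and Ctnnb1 rose by 0.56 (adjusted p = 0.00656). Foxo1, a forkhead factor that restrains beta cell growth, rose there by 0.46 (adjusted p = 0.00392), and Smad3, a transducer of TGF-beta signals that menin assists, fell by 0.45 (adjusted p = 0.0065).

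The next list holds Jund's own family. Of 25 AP-1 subunits, kinases and coactivators, 21 were measured, and the others were not analysed here. In Men1flf RIP-Cre 5 rose, 9 fell and 7 were not called, near the shares of 16.6% higher and 37.1% lower over all probe sets, and the list median of -0.21 was near the -0.23 of all. Those that rose were the Jun kinase genes Mapk8 (0.61) and Mapk9 (0.80), their activator Map2k4 (0.37), the AP-1 subunit Atf2 (0.74), a target of these kinases, and Cops5, also named Jab1 (0.55), a coactivator of Jun proteins. The 9 that fell were AP-1 and Maf subunits: Junb (-0.82), Fosl2 (-0.68), Fosl1 (-0.63), Batf (-0.57), the repressive dimer partner Jdp2 (-0.51), Maf (-0.50), Batf3 (-0.45), Mafg (-0.43) and Mafk (-0.34). The adjusted p-values of all these genes ran from 0.000729 for Mapk9 to 0.0477 for Junb. Mean levels ran from 7.45 (Batf) to 9.48 (Mafg) among those that fell. Among those that rose they ran from 8.54 (Map2k4) to 10.97 (Atf2). The shift over all probe sets depended on level, so no split by function is read from these calls.

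The same list had 3 higher and 2 lower in Rbp2flf RIP-Cre (median -0.03), and 4 higher and 6 lower in the double knockout (median -0.15). Cops5 rose by 0.67 in Rbp2flf RIP-Cre (adjusted p = 0.0126) and by 0.91 in the double knockout (adjusted p = 0.00072), and Mapk9 by 0.47 and 0.68 (adjusted p = 0.0334 and 0.00295). Fosl1 and Batf were the 2 that fell in Rbp2flf RIP-Cre, by 0.48 and 0.46 log2. Fos, Fosb and Jun were 1.08, 0.96 and 1.00 log2 above RIP-Cre in Rbp2flf RIP-Cre without passing, with SE between 0.42 and 0.54 and adjusted p between 0.0964 and 0.194.

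**Figure D4:**
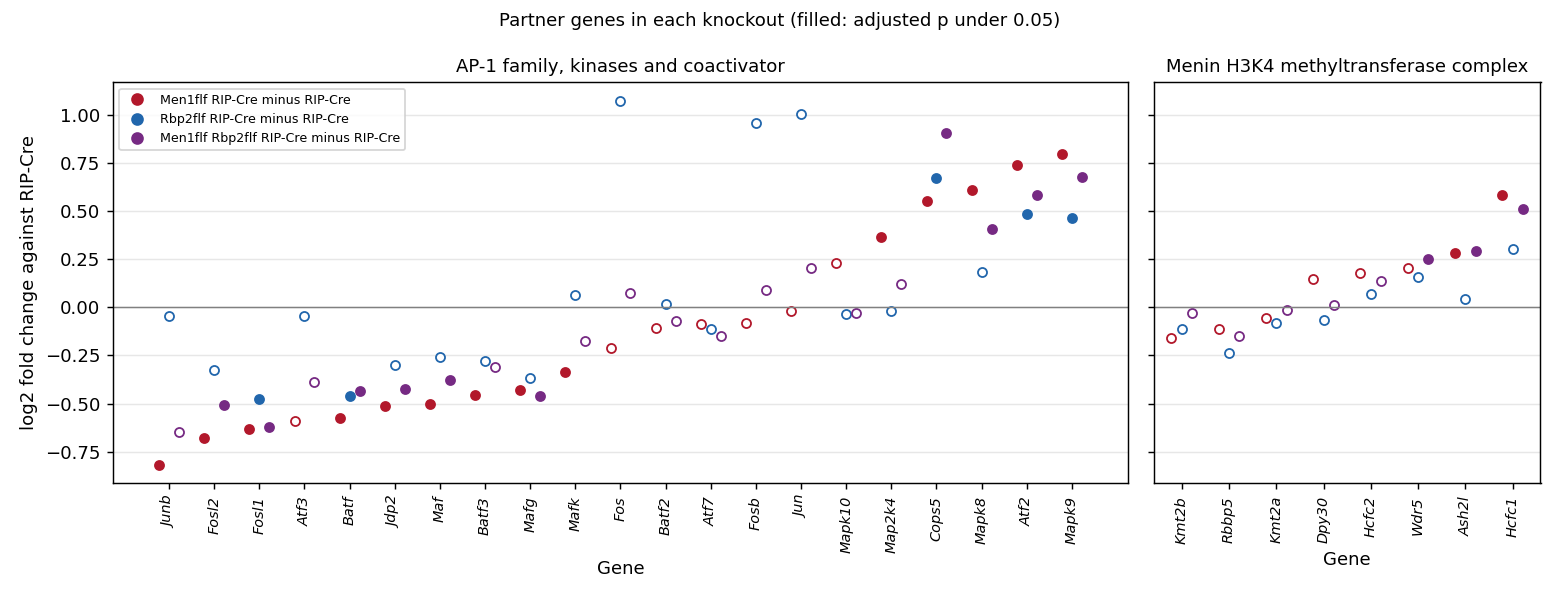
Log2 fold change against RIP-Cre (vertical axis) of the 21 measured AP-1 family genes, kinases and coactivator genes (left) and of the 8 subunits of the menin H3K4 methyltransferase complexes (right) in the 3 knockout groups, filled where the adjusted p was under 0.05. Cops5, Atf2 and Mapk9 are filled and above 0 in all 3 groups, Fosl1 and Batf are filled and below 0 in all 3, and the points of Fos, Fosb and Jun near 1 in Rbp2flf RIP-Cre are open.

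Psip1's family and LEDGF-binding proteins numbered 19, all measured. In Men1flf RIP-Cre 3 rose and 6 fell (median -0.19), in Rbp2flf RIP-Cre 0 rose and 2 fell (median -0.15), and in the double knockout 3 rose and 4 fell (median -0.18). These counts are near the shares over all probe sets, 16.6% higher and 37.1% lower, 6.95% and 6.82%, and 13.7% and 20.5%. The founder of the family, Hdgf, rose by 0.71 in Men1flf RIP-Cre (adjusted p = 0.00163) and by 0.64 in the double knockout (adjusted p = 0.0044). Hdgfl2, the paralog most similar to Psip1 in carrying both a PWWP and an integrase-binding domain, fell in all 3 knockout groups: by 0.81 in Men1flf RIP-Cre (adjusted p = 0.000886), 0.57 in Rbp2flf RIP-Cre (adjusted p = 0.0217) and 0.71 in the double knockout (adjusted p = 0.00295). Pwwp2a, another PWWP reader, fell by 0.56, 0.44 and 0.54 in the same order of groups (adjusted p = 0.00692, 0.0476 and 0.0111). Med1, the Mediator subunit, rose by 0.50 in Men1flf RIP-Cre (adjusted p = 0.00522), and the splicing factor gene Srsf1 rose by 0.34 in the double knockout (adjusted p = 0.0107).

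Of 20 genes known as targets of menin in other settings, 18 were measured, and Cdkn1a and Prlr were not analysed here. In Men1flf RIP-Cre 2 rose and 8 fell (median -0.35), in Rbp2flf RIP-Cre 0 rose and 1 fell (median -0.23), and in the double knockout 1 rose and 4 fell (median -0.24). These too are near the shares over all probe sets, 37.1%, 6.82% and 20.5% lower in that order, and nothing particular to menin targets is read from them. The 2 that rose were Mnx1, a homeobox gene of beta cells (0.53, adjusted p = 0.00624), and Cdkn2c, a CDK inhibitor gene (0.45, adjusted p = 0.0225). Menin is known as an activator of Cdkn2c in other settings. The Cdkn2c probe set had a mean level of 7.23 and was not called in the double knockout (0.23, limma adjusted p = 0.212). Why Cdkn2c was higher in Men1flf RIP-Cre was not tested. Mnx1 also rose in the double knockout, by 0.38 (adjusted p = 0.0358). Gast, which codes for the hormone gastrin, fell by 0.53 in Men1flf RIP-Cre (adjusted p = 0.00393), 0.37 in Rbp2flf RIP-Cre (adjusted p = 0.0492) and 0.43 in the double knockout (adjusted p = 0.0136). Gli1, the Hedgehog effector gene, fell by 0.57 in Men1flf RIP-Cre and by 0.44 in the double knockout (adjusted p = 0.00238 and 0.0115).

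The counts of these 5 lists moved with the treatment of the array-wide shift as well. With the array median as a covariate, 0 or 1 gene was called in any list and knockout group. After quantile or cyclic loess normalization 4 H3K4 complex subunits were called in Men1flf RIP-Cre, 1 of the other menin partners and 0 target genes in Rbp2flf RIP-Cre. Without wt 1, wt 3 and RIP-Cre 3, the control arrays with high medians, 1 H3K4 complex subunit and 5 target genes were called in Men1flf RIP-Cre. In Rbp2flf RIP-Cre that left 1 AP-1 gene and 0 of the other lists. In the double knockout it left 1 H3K4 complex subunit, 5 other menin partners, 4 AP-1 genes, 3 of the Psip1 list and 0 target genes.

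Genes beside the members on the chromosome were read to see whether the Men1 changes extended to them. The shares called lower over all probe sets were 37.1% in Men1flf RIP-Cre, 6.82% in Rbp2flf RIP-Cre and 20.5% in the double knockout. Of the 3 nearest protein-coding genes on each side of Men1, 5 were measured, and Map4k2, whose span begins 96 bases away, was not analysed here. None was called in Rbp2flf RIP-Cre, where their log2 differences ran from -0.33 to 0.14. In Men1flf RIP-Cre Cdc42bpg (-0.59, adjusted p = 0.00344) and Pygm (-0.49, adjusted p = 0.0114) fell, and both fell in the double knockout (-0.44 and -0.39), while Atg2a, Ehd1 and Sf1 were not called. Of the 4 measured near Jund, none was higher in Men1flf RIP-Cre: Iqcn (-0.41, adjusted p = 0.0261) and Pde4c (-0.50, adjusted p = 0.0116) fell, and Lsm4 and Pgpep1 were not called. Gdf15 and Gm3336, also near Jund, were not analysed here. All 6 neighbours of Psip1 were measured. Snapc3, whose span overlaps that of Psip1, differed from RIP-Cre by 0.18, 0.02 and 0.15 in Men1flf RIP-Cre, Rbp2flf RIP-Cre and the double knockout, with no call. Ttc39b fell in Men1flf RIP-Cre (-0.74, adjusted p = 0.000102), as did Frem1 (-0.37), Ccdc171 fell in all 3 knockout groups (-0.48, -0.38 and -0.47), and Bnc2 and Cntln were not called. In Men1flf RIP-Cre the measured neighbours called lower were 2 of 5 for Men1, 2 of 4 for Jund and 3 of 6 for Psip1. Beside the share of 37.1%, no spread of the Men1 change along the chromosome is read from these calls.

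The genes most like each member were read from Pearson r over the 17 arrays, on log2 levels minus the array median and with 1 probe set per gene. Men1 was most like Dennd5b (0.93), Rassf3 (0.92), Lrp5 (0.92), Snx33 (0.92) and Caskin2 (0.91). Each of these 5 had its highest group mean in Rbp2flf RIP-Cre and its lowest in Men1flf RIP-Cre, such as Rassf3 at 9.21 in Rbp2flf RIP-Cre, 8.65 in the double knockout, 8.37 in Men1flf RIP-Cre and 9.06 in RIP-Cre. Jund was most like Rhob (0.90), an immediate-early GTPase gene, followed by Dolk (0.84), Ciapin1 (0.84), Pttg1ip (0.83) and Apeh (0.83). Rhob averaged 8.72 in Men1flf RIP-Cre, 8.69 in Rbp2flf RIP-Cre, 8.40 in the double knockout, 8.01 in RIP-Cre and 8.13 in wt. Psip1 was most like D6Wsu163e (0.95), Ttbk2 (0.94), Zzz3 (0.94), Ankra2 (0.94) and Vps54 (0.94). Zzz3, a subunit of a histone acetyltransferase complex, averaged 10.32 in Men1flf RIP-Cre and 9.91 in RIP-Cre. These genes were picked for their likeness, so their pattern is a description.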

How the data were processed

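RNA of islets was measured on Affymetrix whole-transcript arrays after fragmentation and terminal biotin labelling of single-stranded DNA, per the labels' protocols. The authors deposited log2 intensities, 1 value per probe set and array. Which software, background correction or normalization made them is not given in the sources used here. That the scale is log2 was inferred from low values, since 82.3% of 5229 values from 0 to 3 equal log2 of a multiple of 0.25, which 9.63% of the 2-decimal numbers there would. Probe sets were named through the platform's gene table: 21789 named 1 gene, 1621 several and 12102 none. RefSeq held the gene of 21698 that named 1 gene. Any 2 arrays differed by a root mean square of at least 0.222, so none was a duplicate. The number of arrays limits the precision.

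All 17 arrays entered 1 fit of group means (lmFit and eBayes of limma 3.58.1, R 4.3.3), with Benjamini-Hochberg adjustment over 21789 probe sets within a comparison. The procedure was tested on simulated data with independent noise and 200 probe sets changed in Men1flf RIP-Cre. That simulation held no array-wide shift, so it does not cover the shift seen in these arrays. The members, lists, naming rule and alternatives were chosen with earlier results of these data known. Members are named in every comparison. Lists name up to 2 called genes at either end of the moderated t, and the complex and AP-1 lists are given more fully by direction. The 3 protein-coding neighbours on each side and the 5 most alike genes, without predicted genes, are named too. Names outside these rules are Kdm5a as the targeted gene, Fos, Fosb, Jun and Junb beside Jund and the islet markers. Alternatives were wt as control, only the groups compared, a replicate block, other probe set choices, a filter at the 25th percentile of level, quantile normalization, cyclic loess, trended robust variances, the array median as a covariate, and leaving out arrays. The Fos covariate and list counts without 3 control arrays were added after seeing the data. Sequences are RefSeq's, and promoter windows were found for Men1 and Jund.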

Additional observations from a re-analysis of the deposited data

Results flagged for a closer look

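The shift of Jund with the Rbp2flf genotype differed between islets with and without Men1 deletion, by a test of the difference itself. The interaction was -0.80 on the log2 scale (SE 0.20, limma adjusted p = 0.0476 over 21789 probe sets). Jund was lower in 4 of 4 double knockout arrays than in any of the 3 Men1flf RIP-Cre arrays, while the Rbp2flf RIP-Cre and RIP-Cre arrays overlapped. The adjusted p ran from 0.0347 to 0.323 over 12 other settings, and from 0.0315 to 0.116 when each array was left out. Fos moved with Jund within groups, and with Fos as a covariate the interaction was -0.64 (adjusted p = 0.0534). No gene among the 3 had an array that stood apart from its group by Dixon's test in the 2 groups of 4 arrays.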

How the results depend on the processing

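The 4 Men1 calls, for each knockout group minus RIP-Cre and for the double knockout minus Rbp2flf RIP-Cre, held under every alternative run. The values below did not keep their call or direction, and where no reason is named the cause was not tested. With wt as control, Psip1 in Men1flf RIP-Cre was 0.28 (adjusted p = 0.0364), Jund in the double knockout -0.022 and the Jund interaction -0.73 (adjusted p = 0.0562). With only the groups compared, Jund in the double knockout minus Men1flf RIP-Cre was -0.49 (adjusted p = 0.0377), and with all probe sets tested the Jund interaction stayed at -0.80 (adjusted p = 0.0744). Quantile normalization gave Jund 0.37 in Men1flf RIP-Cre (adjusted p = 0.0812), -0.089 in the double knockout and -0.65 for the interaction (adjusted p = 0.0860), and cyclic loess 0.37 (adjusted p = 0.0802), -0.12 and -0.64 (adjusted p = 0.0854). With the array median as a covariate, Jund was 0.65 in Men1flf RIP-Cre (adjusted p = 0.140) and -0.90 for the interaction (adjusted p = 0.323). Against RIP-Cre, Psip1 was then -0.037 in Men1flf RIP-Cre, -0.069 in Rbp2flf RIP-Cre and -0.076 in the double knockout. It was -0.0067 in the double knockout minus Rbp2flf RIP-Cre and 0.030 for the interaction. With Fos as a covariate, Jund was -0.55 in the double knockout minus Men1flf RIP-Cre (adjusted p = 0.0075), -0.64 for the interaction (adjusted p = 0.0534) and 0.011 in RIP-Cre minus wt, and Psip1 was -0.038 in the double knockout minus Rbp2flf RIP-Cre. Without wt 1, wt 3 and RIP-Cre 3, which leaves 1 wt array whose spread is assumed to be that of the other groups, Men1 in RIP-Cre minus wt was -0.05 and the Jund interaction -0.87 (adjusted p = 0.0763).

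With each array left out, the Jund interaction ran from -0.89 to -0.68 and lost its call without wt 1, RIP-Cre 3, any 1 of the Men1flf RIP-Cre arrays, Rbp2flf RIP-Cre 1 or 2, or double knockout 1 or 3. Jund in RIP-Cre minus wt ran from -0.17 to 0.058, Jund in the double knockout minus RIP-Cre from -0.068 to 0.12, and Psip1 in the double knockout minus Rbp2flf RIP-Cre from -0.053 to 0.057.

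No general pairing by repeat number was seen: deviations of the 31 same-numbered pairs correlated at -0.31 to 0.45 (median 0.01), and those of the other 84 pairs had a median of -0.01. That range is too wide to exclude pairing of some repeats. With the repeat number as a replicate block no member changed its call, and Jund in Men1flf RIP-Cre was 0.54 (adjusted p = 0.0143) and the Jund interaction -0.80 (adjusted p = 0.0444). The block gave 2026 probe sets called for the interaction, against 732 without it.

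Counts over all probe sets moved with the array-wide shift and with single arrays. In Men1flf RIP-Cre, Rbp2flf RIP-Cre and the double knockout against RIP-Cre, 11684, 3001 and 7457 were called. With the array median as a covariate these were 427, 38 and 347, without the 3 control arrays 7651, 464 and 3335, and without RIP-Cre 3 alone 6820, 229 and 2759. After cyclic loess 7693 were called in Men1flf RIP-Cre. Leaving out Rbp2flf RIP-Cre 1 or 2 gave 352 or 983 in that group, and double knockout 2 or 4 gave 4476 or 4132. Between RIP-Cre and wt 26 were called lower without wt 3, and 104 without the 3 control arrays, a count that rests on 1 wt array. The interaction count of 732 was 19 with the array median as a covariate, 40 without RIP-Cre 3, and 17 to 2932 over the arrays left out. The count of 348 for the double knockout minus Men1flf RIP-Cre was 109 without Men1flf RIP-Cre 1. The array count limits precision, and no measure of background was used.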
